A study of Ovis aries with 15 samples.

Results

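This comparison covers the kidney cortex of fetal sheep that had all been given ketamine, with 30 min of hypoxia set against 30 min of normoxia. It uses 8 of the 15 arrays of the study, chosen by their titles: 4 from hypoxic ketamine fetuses and 4 from normoxic ketamine fetuses, with 1 array for each fetus. The fetuses carried chronic catheters and were at about 125 d of gestation (± 3 d), where term is 145 to 147 d. Ketamine, an anaesthetic that blocks the NMDA type of glutamate receptor, went into the fetal vein at 3 mg/kg, 10 min ahead of the exposure. Hypoxia was produced through the mother's ventilation, and the cortex was frozen 24 h after the exposure began. The remaining 7 fetuses had saline in place of ketamine (3 normoxic, 4 hypoxic) and serve here only for the spread of each probe and for the test of whether the response differed between the arms. The labels give no strain, sex or litter. Below, N1 to N4 are the normoxic and H1 to H4 the hypoxic ketamine arrays.

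The fetal kidney at this age is still forming nephrons and vessels, and renal blood flow and urine production are known to change when fetal oxygen falls. Reduced oxygen followed by reoxygenation is known to make vessel walls and tubule cells release signals that attract phagocytes, cells that carry Fc receptors and costimulatory molecules. Ketamine is known to dampen cytokine release in several settings of injury, and its NMDA receptor target is also found in kidney.

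Values are log2 signal relative to the 75th percentile of the same array, so 0 marks the 75th percentile, and a level compares arrays, not probes. Over the 8 arrays that percentile lay at an intensity of 1087 to 1394. H4 detected the fewest probes above its background (75.7%), and the other 7 arrays between 81.0% and 85.2%. Kidney genes were detected: 4 of 6 proximal tubule genes, 11 of 11 genes of the loop of Henle, distal tubule and collecting duct, 4 of 4 podocyte genes and 13 of 13 endothelial genes were well above background on all 8 arrays. Placental lactogen, a hormone of the placenta, was well above background on N1 (-2.97), N2 (-3.30) and H2 (-6.18), and lay between -9.20 and -7.90 on the other 5. H2 also had the highest level of most immune lists and the lowest weight of the 8 when arrays were weighted by their fit (0.444). The arrays lay on 2 slides, N1, N2, H2 and H4 on the first and N3, N4, H1 and H3 on the second. The arrays with placental lactogen are thus all on the first slide. Fits without them keep only N3 and N4 in normoxia, as does the fit within the second slide. Fits by slide and fits without these arrays are therefore not separate checks, and slide and placental transcripts cannot be told apart by them.

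Of 12925 probes tested with limma, 1121 (8.67%) passed the study's own threshold, p up to 0.05 without adjustment: 479 rose (3.71%) and 642 fell (4.97%) after hypoxia. After Benjamini-Hochberg adjustment in limma 0 of the 1121 passed, and the lowest adjusted p was 0.149. In 842 probes (6.51%) the 4 hypoxic values did not overlap the 4 normoxic ones, lying above them in 365 (2.82%) and below them in 477 (3.69%). Only 11.4% of the probes on the array carry a gene name. Among 907 named genes, each represented by its brightest probe, 41 rose (4.52%) and 54 fell (5.95%), 10.5% in all, and the groups did not overlap in 68 (7.5%). The counts of gene lists below are to be read beside these shares, since a small list near them differs little from named genes at large. Below, "rose" and "fell" refer to the unadjusted threshold, and ± after a difference is its standard error. Adjusted p in limma ranged from 0.156 to 0.571 over 55 called genes, those of the naming rule. Of these, 28 had 1 or more further probes, 34 in all. All 34 of those probes differed in the same direction, 29 of them past the threshold. Probes of 1 gene share the RNA and the arrays, so this is not a separate check on the fetuses. Labels do not say whether fetuses shared a mother, so p-values measure the spread between these arrays.

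CD86 is a costimulatory molecule on antigen-presenting cells. Its levels were -3.39, -3.70, -3.47 and -2.99 on N1 to N4, and -2.22, -0.78, -2.81 and -2.22 on H1 to H4. All 4 hypoxic arrays lay above all 4 normoxic ones, with H2 highest. The rise was 2.60-fold (log2 1.38 ± 0.39; limma adjusted p = 0.33), and the second probe gave 1.30 ± 0.34. FCGR1A, the high-affinity receptor for IgG, read -4.44, -5.21, -5.12 and -3.97 in normoxia and -3.13, -1.86, -4.29 and -3.61 in hypoxia. Here the groups overlapped, since H3 lay below N4. FCGR1A rose 2.76-fold (1.46 ± 0.50; limma adjusted p = 0.42).

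SLC15A1 is a proton-coupled carrier of dipeptides and tripeptides. It was dim in normoxia, at -6.31, -6.43, -5.53 and -7.18, the last not well above background, and read -3.99, -2.19, -5.01 and -4.78 in hypoxia. No hypoxic value fell within the normoxic range. The rise was 5.16-fold (2.37 ± 0.61; limma adjusted p = 0.28), and 2.49 ± 0.69 at its second probe. Background correction by normexp gave 1.32, and the deposited values gave 1.41, both past the threshold.

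ITGA4, the alpha 4 integrin chain that lets leukocytes bind VCAM1 and fibronectin, moved the other way. Its levels were -3.97, -2.23, -4.10 and -3.65 in normoxia and -6.15, -5.20, -4.40 and -5.02 in hypoxia. Every hypoxic array was below every normoxic one, N2 was the highest and H1 the lowest. ITGA4 fell by 1.70 ± 0.41 (limma adjusted p = 0.24), and its second probe by 1.39 ± 0.35. NTN4, a netrin of basement membranes, stood at 2.01, 2.34, 1.97 and 2.0 in normoxia and at 1.07, 0.74, 1.43 and 1.16 in hypoxia. The normoxic arrays other than N2 lay within 0.05 of each other, and the hypoxic group lay lower throughout. NTN4 fell by 0.98 ± 0.19 (limma adjusted p = 0.16), the smallest of all named genes, and by 0.84 ± 0.19 at its second probe.

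**Figure D1:**
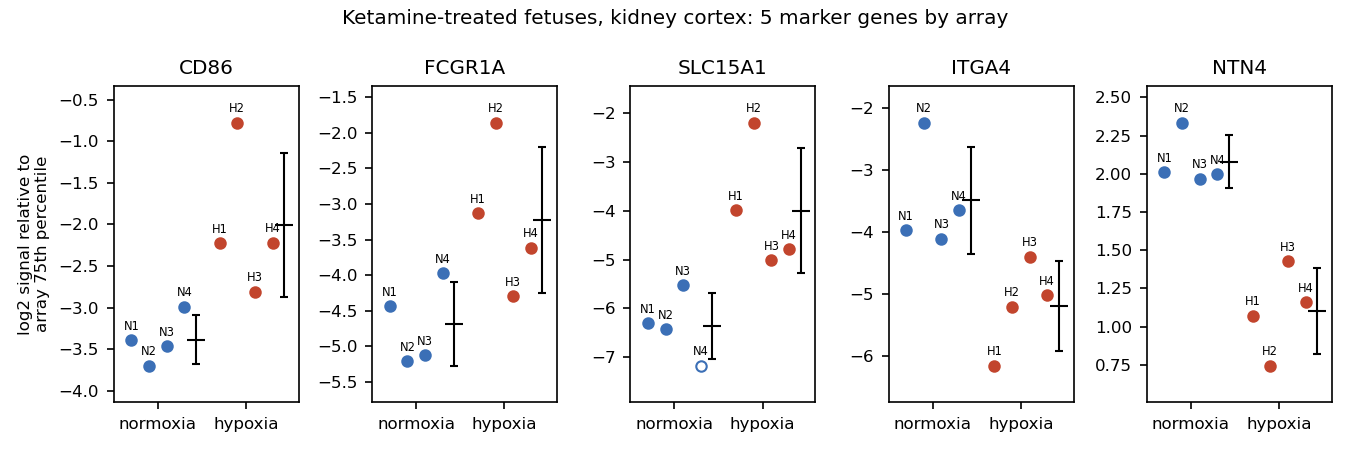
Level of 5 genes on each ketamine array (y axis: log2 signal relative to the array's 75th percentile), with normoxic arrays N1 to N4 in blue and hypoxic arrays H1 to H4 in red; open circles are not well above background, and the bar is the mean ± SD over 4 arrays. CD86, FCGR1A and SLC15A1 are higher and ITGA4 and NTN4 lower in hypoxia, and FCGR1A is the only 1 of the 5 whose groups overlap.

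In each fit that left out 1 of the 15 arrays these 5 genes passed the threshold. Without the 3 arrays with placental lactogen, which leaves 2 normoxic and 3 hypoxic arrays, CD86 (0.81) and FCGR1A (0.87) did not pass, while SLC15A1, ITGA4 and NTN4 did. ITGA4 did not pass with normexp (-0.59). Within the first slide CD86 differed by 2.05, FCGR1A by 2.09, SLC15A1 by 2.88, ITGA4 by -2.01 and NTN4 by -1.22, where all 5 passed, and within the second by 0.71, 0.84, 1.85, -1.40 and -0.73, where none of the 5 passed.

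The probes are 60 bases long. Their sequences show what the array reads for CD86, which rose, ITGA4, which fell, and MHC class I chains described further on. Capitals mark a stop codon that closes the open reading frame at the 3′ end of the probe. The CD86 and OVAR probes end in such a codon, and the other pair hold at least 1 frame without a stop.
CD86: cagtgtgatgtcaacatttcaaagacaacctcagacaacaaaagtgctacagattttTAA
ITGA4: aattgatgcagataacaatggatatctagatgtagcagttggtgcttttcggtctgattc
OVAR: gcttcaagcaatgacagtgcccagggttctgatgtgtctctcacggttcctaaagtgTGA
MHC class I heavy chain: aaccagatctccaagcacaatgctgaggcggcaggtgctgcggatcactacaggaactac

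Of 9 monocyte and macrophage genes tested, 4 rose, where 4.52% of all named genes did, and 0 fell in limma. The median difference was 1.15 against -0.02 over all probes. CD14, also in this list, did not pass (0.28 ± 0.29), and CD86 and FCGR1A are among the marker genes given with the comparison. The same list counted 3 rises without H2 (median 0.75) and 0 without the arrays with placental lactogen (0.48). The list's mean centred level was -0.59 to -0.28 on the normoxic and -0.17 to 1.59 on the hypoxic arrays. Bulk tissue cannot tell more cells of a type from more RNA per cell. Beside CD86 and FCGR1A, FCER1G, the signalling chain shared by Fc receptors, read -0.85, -1.55, -1.26 and -0.93 in normoxia and -0.21, 0.96, -0.46 and -0.18 in hypoxia. Its groups did not overlap, and it rose 2.25-fold (1.17 ± 0.36; 1.07 ± 0.37 at the second probe). FCGR2B, the inhibitory IgG receptor, rose by 1.68 ± 0.65, with H4 inside the normoxic range.

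The next 5 genes were named for large rises without overlap and belong to no common list. CLEC6A, a lectin receptor for fungal sugars, read -3.74, -3.52, -3.58 and -3.13 in normoxia and -2.51, 0.27, -2.63 and -2.04 in hypoxia. H2 stood far above the rest, but H1, H3 and H4 were also above all normoxic arrays. CLEC6A rose 3.40-fold (1.77 ± 0.55), and by 1.1 without H2. CYBB, the catalytic subunit of the phagocyte NADPH oxidase, rose by 1.41 ± 0.58, and 1 of its other 2 probes passed. LYZ2A, a lysozyme, rose by 2.79 ± 1.13, LOC100101238, a regakine 1-like chemokine, by 1.93 ± 0.74, and ADORA3, the adenosine A3 receptor, by 1.01 ± 0.41. In these 4 genes, too, the groups did not overlap.

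Among neutrophil genes 2 of 5 rose, both cathelicidins, which are antimicrobial peptides of granules. CATHL3 read -1.62, -2.52, -0.59 and -0.63 in normoxia and 0.07, 4.42, -0.13 and 2.98 in hypoxia, and rose by 3.17 ± 1.25. CATHL1B rose by 2.93 ± 1.33. The height came from H2 and H4: within the first slide, which holds both, the list's median was 5.34, and within the second 0.20. SAA3, an acute-phase protein, read -4.06, -4.70, -7.02 and -5.51 in normoxia and -4.14, 4.99, -4.05 and -2.10 in hypoxia, and its rise of 4.00 ± 1.71 was 1.89 and not called without H2, nor was SAA3 called from the 8 ketamine arrays alone (4.00) or in the deposited values (3.15).

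The calls of several of these genes rested on single arrays. Without H2, FCGR2B (1.1), LYZ2A (1.98), CYBB (1.05), ADORA3 (0.76), CATHL3 (2.31) and CATHL1B (2.06) did not pass. FCGR2B also lost its call without N1 (1.47) or N3 (1.57), LYZ2A without N2 (2.67) or N3 (2.48), LOC100101238 without N3 (1.77), CYBB without N2 to N4 (1.36 to 1.38) or H4 (1.34), and ADORA3 without N2 (0.97) or N3 (0.97). CATHL3 lost it without N2 (2.78) or H4 (2.79), CATHL1B without 8 single arrays (2.06 to 3.09), and SAA3 without N3 (3.43) or N4 (3.94). Without the arrays with placental lactogen FCER1G (0.81), FCGR2B (0.94), CLEC6A (0.96), CYBB (1.19), LYZ2A (2.06), LOC100101238 (1.77), ADORA3 (0.77), CATHL3 (1.59), CATHL1B (1.36) and SAA3 (2.84) did not pass.

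Of 8 genes that interferon induces, all 8 were higher, 3 rose and 0 fell in limma (median 2.15). IFITM3, a membrane protein that blocks viral entry, read 4.19, 4.25, 4.10 and 4.45 in normoxia and 5.36, 5.78, 4.55 and 4.95 in hypoxia. The groups did not overlap, with H1 and H2 highest, and IFITM3 rose by 0.92 ± 0.26, a call kept in every fit that left out 1 array. RTP4, an interferon-induced chaperone of receptors, read 1.27, 0.99, 0.50 and 1.29 in normoxia and 2.41, 5.47, 2.47 and 2.14 in hypoxia, and rose by 2.11 ± 0.92. CXCL10, a chemokine for T cells, rose by 3.15 ± 1.42, with H1 inside the normoxic range. Others are named after their values were seen: ISG15 differed by 2.80, MX2 by 2.68, MX1 by 2.19 and IRF1 by 2.04, none past the threshold. The list's level was 3.68 on H2 and 0.05 to 0.34 on the other hypoxic arrays, against -1.46 to -0.61 in normoxia, so that H1, H3 and H4 also lay above the normoxic range. TLR3, the receptor for double-stranded RNA, read -2.19, -1.85, -2.16 and -1.98 in normoxia and -1.39, -0.89, -1.37 and -1.56 in hypoxia. Its groups did not overlap, and it rose by 0.74 ± 0.26, the only call among 14 genes of toll-like receptors and the NF-kB pathway. That count is near the 10.5% of all named genes called.

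The interferon count depended on single arrays: 1 gene rose without N2, N3, N4 or H2, and 7 without hypoxia vehicle replicate 4. RTP4 was not called without any 1 of N1 to N4 (1.94 to 2.2) or H2 (1.33). CXCL10 was not called without N2, N3 or N4 (2.85 to 3.10), H2 (2.15), H3 (3.41), H4 (3.21), normoxia vehicle replicates 1 or 2 or hypoxia vehicle replicate 2 (3.15 each), nor with normexp (2.81). Without the arrays with placental lactogen IFITM3 (0.68), RTP4 (1.45), CXCL10 (2.81) and TLR3 (0.63) did not pass, and the list counted 0 (median 1.30).

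MHC class I molecules show peptides from inside the cell to T cells, and each pairs a heavy chain with B2M. B2M read 4.18, 4.33, 4.11 and 4.37 in normoxia and 5.03, 6.28, 4.92 and 5.59 in hypoxia. Each hypoxic array exceeded each normoxic one, and B2M rose 2.31-fold (1.21 ± 0.43; 1.15 ± 0.43 at the second probe). The array holds 15 probes described as MHC class I heavy chains, of which all 15 were higher, 6 rose and 0 fell in limma (median 1.37). The OVAR probe printed above read 3.80, 4.00, 3.48 and 3.35 in normoxia and 4.45, 6.13, 4.21 and 5.32 in hypoxia, and rose by 1.37 ± 0.62. It was chosen because it passed, and a second probe of the same transcript differed by 1.35 ± 0.66 and did not. The other printed heavy chain probe read -0.37, -1.62, -2.07 and -2.50 in normoxia and -1.62, -0.19, -0.06 and 0.87 in hypoxia, and rose by 1.39 ± 0.59 with H1 inside the normoxic range. In 11 of the 15 probes a run of at least 20 bases is shared with another of them, up to 53 bases. One transcript may thus light several, and the 15 are not independent readings.

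Without H2 0 of the 15 heavy chain probes passed the unadjusted threshold in limma, with a median of 0.94. The count was 1 without N3 or H4, 2 without N2 or without the arrays with placental lactogen, 3 without N4, and 11 without H1 or hypoxia vehicle replicate 1. Within the first slide 12 rose (median 1.92) and within the second 1 (0.82). B2M was not called without H2 (0.93) or the arrays with placental lactogen (0.94).

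**Figure D2:**
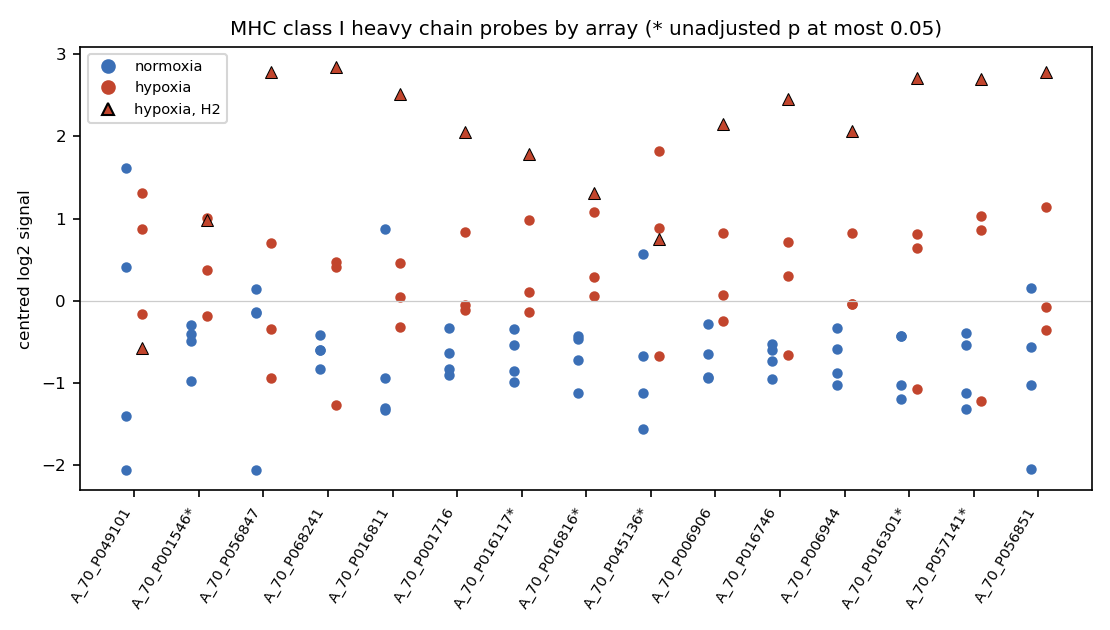
Signal of 15 MHC class I heavy chain probes (x axis: probe identifier) on each ketamine array, as log2 signal minus the probe's mean over the 8 arrays (y axis); blue circles are normoxic arrays, red circles hypoxic arrays, and the outlined red triangle is H2. All 15 probes have a higher hypoxic than normoxic mean, 6 carry a star for an unadjusted p of at most 0.05, and H2 is the highest array in most of them.

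Cytokine genes moved less uniformly. Of 18 cytokines and chemokines 15 were higher, 3 rose and 0 fell in limma, with a median of 0.33. Of all named genes 4.52% rose. CXCL10, already counted in the interferon list, is 1 of the 3. FLT3LG, a growth factor for dendritic cells, read -0.43, -0.41, -0.46 and -0.53 in normoxia and 0.65, 0.85, 0.05 and 0.10 in hypoxia. The normoxic arrays lay close together, all hypoxic arrays lay above them, and FLT3LG rose 1.83-fold (0.87 ± 0.24), a call kept in every fit that left out 1 array and without the arrays with placental lactogen. TNF, an early inflammatory cytokine, read -4.01, -4.50, -5.01 and -4.92 in normoxia and -3.86, -1.30, -4.19 and -3.04 in hypoxia. H3 lay inside the normoxic range, and TNF rose 2.86-fold (1.52 ± 0.62), but not without N3 (1.38), N4 (1.41), H2 (0.92), H4 (1.50) or the arrays with placental lactogen (1.27). IL13RA1, a receptor chain for interleukins 4 and 13, was the only 1 of 7 cytokine receptors and antagonists called, near the 10.5% of all named genes. It read -1.15, -1.19, -1.28 and -1.32 in normoxia and -2.02, -1.34, -2.01 and -2.31 in hypoxia, and fell by 0.68 ± 0.16 with no overlap.

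The other inflammatory genes examined did not pass: IL1B differed by 0.89 ± 0.72, CXCL8 by 1.29 ± 1.14, IL1RN by 1.61 ± 0.90, NFKBIA by 0.81 ± 0.50, ICAM1 by 1.01 ± 0.78 and JUNB by 0.80 ± 0.69. SELP, an adhesion molecule of platelets and endothelium, read -5.54, -5.53, -5.50 and -4.69 in normoxia and -1.53, -0.74, -5.29 and -5.19 in hypoxia, a difference of 2.13 ± 1.06. PTX3, a soluble pattern receptor, read -6.30, -6.35, -7.20 and -4.82 in normoxia and -1.71, 0.00, -6.42 and -5.90 in hypoxia (2.66 ± 1.30), and its second, dimmer probe passed at 2.91 ± 1.29. In both genes H1 and H2 were high while H3 and H4 lay within the normoxic range. IL6 exceeded its background on H1 to H3 and on none of N1 to N4, and its hypoxic mean was at least 1.87-fold higher (limma adjusted p = 0.83). CD14 (0.28 ± 0.29), TLR2 (0.40 ± 0.57) and TLR4 (-0.31 ± 0.43), receptors for bacterial products, did not pass. CD5, a surface receptor of T cells, was the only 1 of 11 T and NK cell genes that rose, where 4.52% of all named genes did. It differed by 0.71 ± 0.31 and lost its call without N2 (0.65), N3 (0.70), N4 (0.70), H2 (0.51), H4 (0.67) or the arrays with placental lactogen (0.55). Of 28 immunoglobulin probes 0 passed in limma at the unadjusted threshold (median 0.40), and of 14 T-cell receptor probes 0 (median -0.05), where 8.67% of all probes passed.

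**Figure D3:**
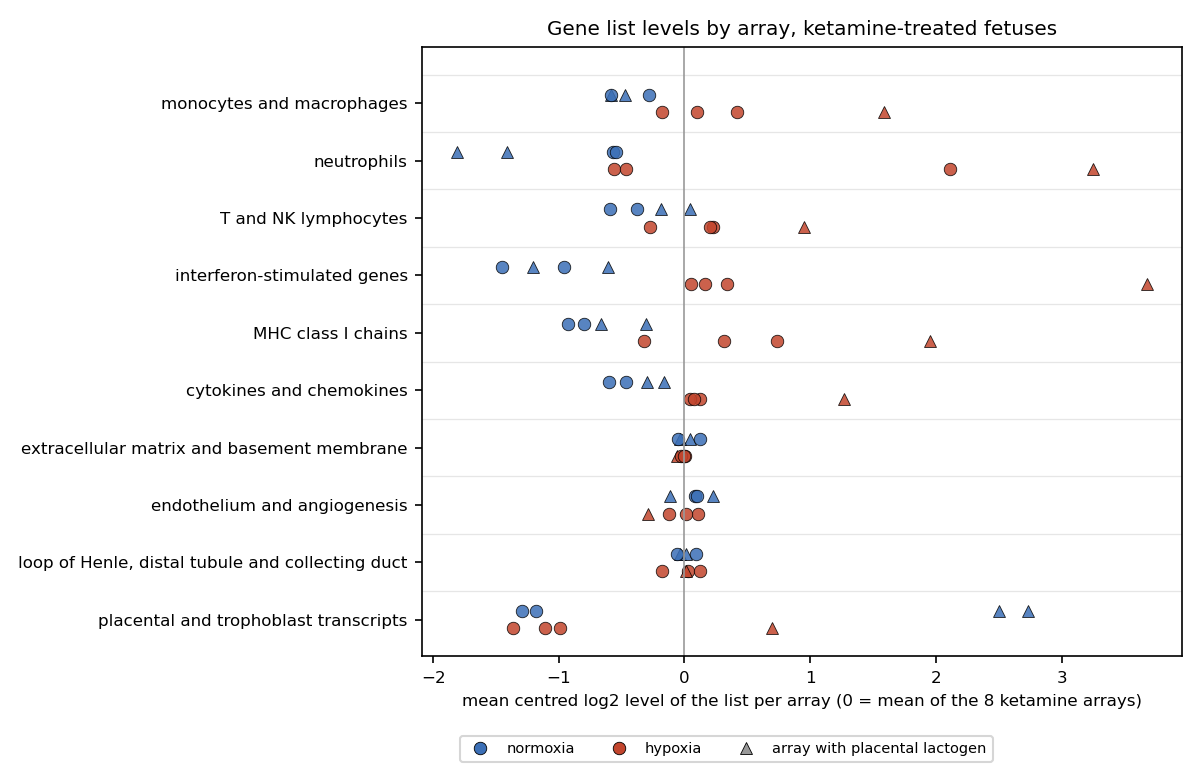
Level of 10 gene lists on each ketamine array (x axis: mean over the list's genes or probes of the log2 signal, each centred on its mean over the 8 arrays), with normoxia in blue, hypoxia in red, and triangles for the 3 arrays with placental lactogen. H2 is the highest array of each of the 6 immune lists, and the matrix list, the endothelial list and the list of the loop of Henle, distal tubule and collecting duct stay within 0.3 of 0 on all 8 arrays.

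Of 13 endothelial and angiogenic genes 4 were higher, 0 rose and 3 fell in limma (median -0.11 against -0.02 over all probes). ANGPT1, the ligand that stabilises vessels through the TEK receptor, read -0.94, -0.94, -1.34 and -0.51 in normoxia and -2.21, -2.41, -1.46 and -1.33 in hypoxia. H1 and H2 were far below the normoxic range, H4 just inside it, and ANGPT1 fell by 0.92 ± 0.27. A probe from another sheep transcript that the array calls ANG-1 read -1.25, -1.15, -1.46 and -0.84 in normoxia and -2.39, -2.94, -1.96 and -1.64 in hypoxia, with no overlap, and fell by 1.06 ± 0.28. KDR, the main VEGF receptor, read -2.33, -2.59, -2.16 and -2.53 in normoxia and -2.90, -2.74, -2.48 and -2.90 in hypoxia and fell by 0.35 ± 0.13. Its other 3 probes also fell, by 0.58, 0.50 and 0.31. ROBO4, a guidance receptor of endothelium, fell by 0.45 ± 0.16, while its second probe differed by -0.28 and did not pass. VEGFA, the KDR ligand, differed by -0.22 ± 0.28.

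Of 20 matrix and basement membrane genes 9 were higher, 4 fell and 1 rose (median -0.04), and the list's level was -0.05 to 0.12 in normoxia and -0.06 to 0.01 in hypoxia. COL3A1, a fibrillar collagen chain, read 0.37, 0.79, 0.23 and 0.49 in normoxia and 0.03, 0.00, 0.09 and -0.34 in hypoxia. The groups did not overlap, and COL3A1 fell by 0.53 ± 0.14, with 2 of its other 3 probes past the threshold. COL4A1, a chain of basement membrane collagen, read -0.28, -0.94, -0.40 and -0.19 in normoxia and -1.0, -0.79, -1.05 and -1.20 in hypoxia, and fell by 0.56 ± 0.17. Here N2 lay among the hypoxic arrays. COL1A2 (-0.33 ± 0.15) and TIMP2 (0.45 ± 0.19), an inhibitor of matrix proteases, passed by less: COL1A2 was not called in 12 of the 15 fits that left out 1 array (-0.37 to -0.23), and TIMP2 not without N3 (0.36), N4 (0.46), H1 (0.31) or H4 (0.36). COL1A2 was also not called from the 8 ketamine arrays alone, without the filter on dim probes, with slide or replicate number as a block (-0.33 each) or with array weights (-0.22), and TIMP2 not from the 8 ketamine arrays (0.45), with quantile normalization (0.41) or in the deposited values (0.31). CLMP, a cell adhesion protein, fell by 0.74 ± 0.25 with no overlap.

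ANGPT1, ANG-1, COL3A1, COL4A1 and CLMP passed in each fit that left out 1 array. KDR did not without N3 (-0.27) or H1 (-0.31), nor ROBO4 without H1 (-0.33). ANGPT1 (-0.74), COL1A2 (-0.14) and CLMP (-0.56) were not called without the arrays with placental lactogen, and KDR (-0.19), ROBO4 (-0.02), COL1A2 (-0.26) and CLMP (-0.16) not with normexp.

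Of 15 genes of the insulin-like growth factor axis 1 rose and 1 fell in limma, near the 4.52% and 5.95% of all named genes. IGF1, insulin-like growth factor 1, read -2.94, -3.42, -3.39 and -3.42 in normoxia and -4.36, -3.87, -3.79 and -3.89 in hypoxia. N1 was the highest, H1 the lowest, the groups did not overlap, and IGF1 fell by 0.68 ± 0.19. IGFBP1, a binding protein that holds back insulin-like growth factors and is induced by hypoxia in liver, read -6.34, -6.15, -3.85 and -7.51 in normoxia, the last not well above background, and -0.53, 2.47, -4.91 and -2.14 in hypoxia. H3 lay below N3 and the other hypoxic arrays above all normoxic ones. IGFBP1 rose by 4.69 ± 1.50, a fitted 25.8-fold, and its other 2 probes by 5.38 and 3.79. Its difference was 3.32 with normexp, 3.51 in the deposited values and 3.44 to 5.90 over fits that left out 1 array. With N1, N2 and N4 dim, the size of the fold is uncertain. The other 13 genes of this axis did not pass, the list's median being -0.03. IGF1 did not pass with normexp (-0.24) and IGFBP1 not without the arrays with placental lactogen (3.15).

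Most genes of the hypoxia-inducible factor pathway and its targets did not pass at this time. Of 17, 2 rose and 1 fell in limma (median 0.17): IGFBP1, HIF3A, a member of the factor family that restrains the others (0.54 ± 0.23), and KDR. Of all named genes 4.52% rose and 5.95% fell. In vehicle fetuses 7 of the 17 rose and 1 fell, where 5.78% of all probes rose and 10.4% fell. These vehicle shares are over probes, whereas the ketamine ones are over named genes. The test of whether the arms differed passed for 1 of the 17, and for 3.64% of all named genes. HIF3A lost its call without N4 (0.41), H1 (0.38), H2 (0.50) or the arrays with placental lactogen (0.58). SLC2A1, the main glucose carrier of most cells, differed by 0.46 ± 0.25 and LDHA, the enzyme that makes lactate, by 0.43 ± 0.34, and neither passed.

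Of all named genes 4.52% rose and 5.95% fell, and of 33 solute carriers 1 rose, SLC15A1, and 1 fell (median -0.04). The latter was SLC4A4, the bicarbonate exit path of the proximal tubule, at -4.09, -3.92, -3.66 and -4.12 in normoxia and -4.90, -4.46, -4.33 and -4.54 in hypoxia. Its groups did not overlap and it fell by 0.61 ± 0.16. NHERF1, a scaffold that anchors transporters in the brush border, read 0.25, 0.22, 0.16 and 0.01 in normoxia and -0.80, -0.35, -0.20 and -0.36 in hypoxia. H1 was lowest, no value overlapped, and NHERF1 fell by 0.59 ± 0.15 (0.64 ± 0.16 at the second probe). Of 11 genes of the more distal segments and of 4 podocyte genes 0 passed in limma at the unadjusted threshold. With 10.5% of all named genes called, 0 of so few genes is near that share. TFF3, a peptide secreted during epithelial repair, rose by 0.75 ± 0.31, and with B2M made 2 of 9 injury and repair genes. SLC4A4 and NHERF1 passed in each fit that left out 1 array, and with normexp SLC4A4 (-0.05) did not. TFF3 was not called without N2 (0.67), N4 (0.64) or H1 (0.47).

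CLOCK, a core activator of the circadian clock, read -4.61, -4.41, -4.23 and -4.73 in normoxia and -5.24, -4.82, -5.04 and -5.25 in hypoxia. The groups did not overlap, CLOCK fell by 0.59 ± 0.14, and with normexp it turned to 0.075; the cause was not tested. PER1, a repressor of the clock that glucocorticoids induce, rose by 0.71 ± 0.31, but not without N1 (0.63), N4 (0.51), H1 (0.57), H2 (0.57) or the arrays with placental lactogen (0.67). The other 10 clock genes did not pass. UBQLN1, which delivers proteins to the proteasome, fell by 0.52 ± 0.17 with no overlap and passed in each fit that left out 1 array. BAX, a pore-forming protein of apoptosis, was the only 1 of 9 apoptosis genes called, near the 10.5% of all named genes. It fell by 0.52 ± 0.16, and was not called without the arrays with placental lactogen (-0.39).

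Hormone and steroid genes gave several smaller calls. HSD11B1, which regenerates cortisol inside cells, read 0.92, 1.85, 1.57 and 0.68 in normoxia and 1.12, 0.14, 0.63 and -0.04 in hypoxia, and fell by 0.79 ± 0.34. NR3C1, the glucocorticoid receptor, fell by 0.38 ± 0.17. CYP24, which inactivates vitamin D, rose by 2.19 ± 0.97, with 2 of 4 normoxic and 3 of 4 hypoxic arrays well above background. CYP4F21, an omega-hydroxylase of prostaglandins, read -4.95, -2.46, -3.69 and -4.87 in normoxia and -5.56, -5.07, -5.58 and -5.52 in hypoxia. The groups did not overlap, N2 was far the highest, and CYP4F21 fell by 1.44 ± 0.50, and by 0.93 without N2. SCD, a desaturase of fatty acids, fell by 0.76 ± 0.31, and FST, an activin antagonist, SMAD4, the shared mediator of TGF-beta signals, and MET, the receptor of hepatocyte growth factor, fell by 0.75 ± 0.28, 0.29 ± 0.11 and 0.35 ± 0.15.

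Of these, CYP4F21 alone passed in each fit that left out 1 array. HSD11B1 lost its call without N2 (-0.60), N3 (-0.69), H2 (-0.68) or H4 (-0.62), and NR3C1 without N1 to N3 (-0.41 to -0.29), H1 (-0.26) or H2 (-0.33). CYP24 lost it without N2 (2.03), N4 (1.77), H1 (1.94), H2 (1.61) or normoxia vehicle replicate 1 (2.19), and SCD without N1 (-0.67), N4 (-0.76), H1 (-0.73), H3 (-0.60) or H4 (-0.60). FST lost it without N1 (-0.45) or H2 (-0.52), SMAD4 without N2 (-0.22), H1 (-0.23) or H4 (-0.27), and MET without N2 (-0.21), N3 (-0.31), H1 (-0.34), H2 (-0.29) or H4 (-0.36). Without the arrays with placental lactogen SCD and CYP4F21 passed, and HSD11B1 (-0.56), NR3C1 (-0.21), CYP24 (1.94), FST (-0.22), SMAD4 (-0.25) and MET (-0.15) did not. With normexp NR3C1 (-0.06), CYP24 (1.13), CYP4F21 (-0.35) and SMAD4 (-0.20) did not pass and SCD turned to 0.092.

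Other settings ended further calls. From the 8 ketamine arrays alone, with the spread taken from them, SCD (-0.76), FST (-0.75), NR3C1 (-0.38), MET (-0.35) and PAG11 (-1.53), described further on, did not pass. In the deposited values CYP24 (1.09), SCD (-0.37), HIF3A (0.32), CD5 (0.50) and CXCL10 (2.89) did not pass, and ADORA3 (0.60), FCGR2B (1.02), PER1 (0.29), CYP4F21 (-0.89), SLC4A4 (-0.35) and CLOCK (-0.38) passed with a difference smaller by more than 1.5 times. With normexp LYZ2A (1.72) and FCGR2B (1.07) passed with one as much smaller. Array weights ended the calls of CYP24 (1.57), CATHL1B (2.25), CD5 (0.54) and HIF3A (0.47), a slide block that of CATHL1B (2.93), and a replicate block that of NR3C1 (-0.38).

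**Figure D4:**
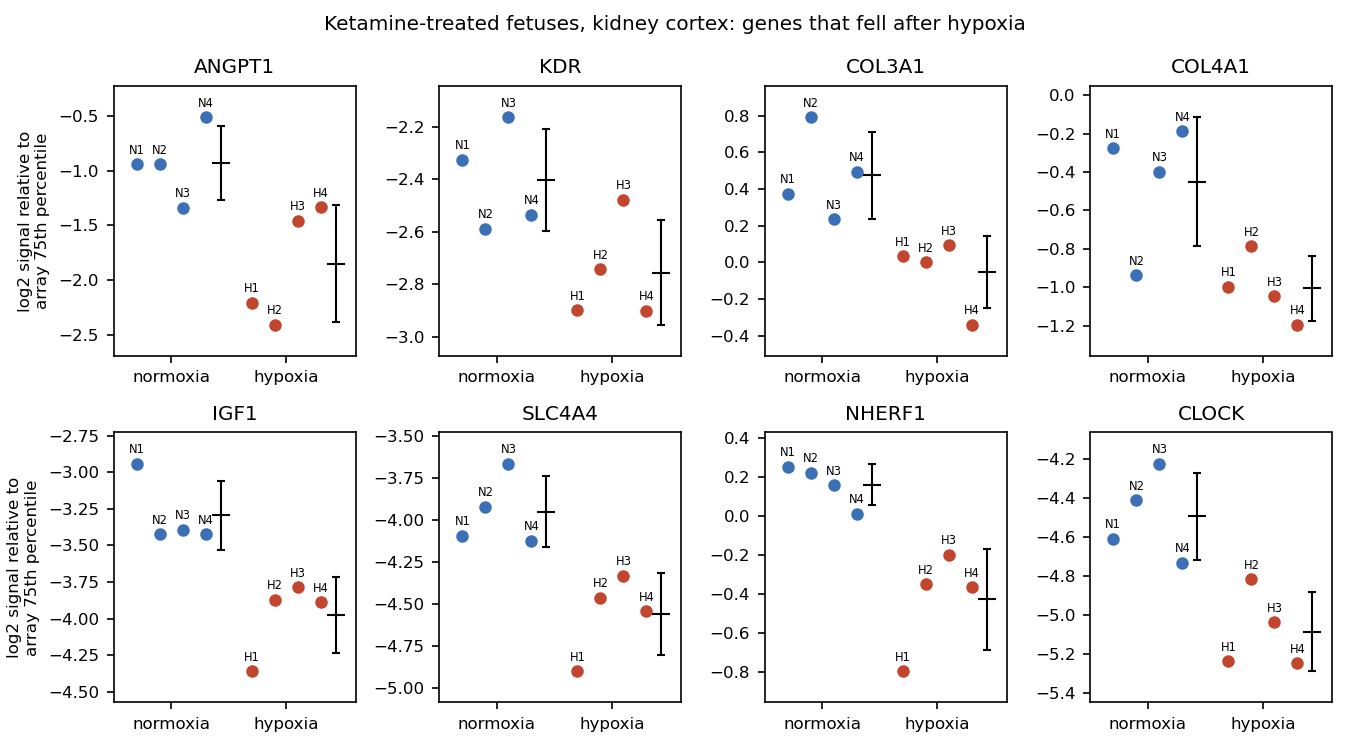
Level of 8 genes that fell after hypoxia in ketamine fetuses, on each array (y axis: log2 signal relative to the array's 75th percentile), with normoxic arrays N1 to N4 in blue, hypoxic arrays H1 to H4 in red, and the bar as mean ± SD over 4 arrays. COL3A1, IGF1, SLC4A4, NHERF1 and CLOCK show no overlap between the groups, whereas ANGPT1, KDR and COL4A1 overlap by 1 or 2 arrays.

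Placental transcripts were high on N1, N2 and, less so, H2. Of 9 tested, 8 lay lower and 2 fell, PAG11 (-1.53 ± 0.67), a pregnancy-associated glycoprotein of the trophoblast, and PRP2 (-1.18 ± 0.42), a prolactin-related protein. PAG11 read -2.53, -2.08, -5.40 and -5.30 in normoxia and -5.58, -4.21, -5.41 and -6.24 in hypoxia, so these 3 arrays stood above the rest. Of the 9 genes 0 were well above background on all 8 arrays, and the list's level was 2.51 on N1, 2.73 on N2 and 0.70 on H2, against -1.36 to -0.99 on the other 5. Neither gene passed without N1 (-1.10 and -0.87), without N2 (-0.95 and -0.88), without all 3 arrays (-0.39 and -0.48) or with normexp, which gave -0.50 and 0.16. PAG11 also did not pass without H1 (-1.46), H3 (-1.51) or H4 (-1.24). The part of these transcripts in the other results was not tested beyond the fits without these arrays. Of the 59 called genes and probes of the naming rule all 59 kept their direction there. Of them 23 passed, 6 of 29 that rose and 17 of 30 that fell. The 59 were called on arrays that include those kept there, so the shared direction is not independent of their choice.

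Whether ketamine fetuses responded to hypoxia differently from vehicle fetuses was tested as the difference between both responses, which share no array. At the unadjusted threshold 407 of 12925 probes passed (3.15%) and 33 of 907 named genes (3.64%), and 0 after adjustment in limma, where the lowest adjusted p was 0.989. The 407 became 247 without normoxia vehicle replicate 2, 239 without H3, 673 without hypoxia vehicle replicate 2 or 3, and 986 without H2. In vehicle fetuses 16.1% of the probes were called, 5.78% higher and 10.4% lower. Of the 479 probes that rose with ketamine 164 also rose with vehicle, which is 34.2% of the former and 22.0% of the latter; of the 642 that fell 286 did, which is 44.5% and 21.3%. Opposite calls were made for 7 probes. CD86 differed by 1.65 and FCGR1A by 2.45 in vehicle fetuses, SLC15A1 by 1.50, ITGA4 by -1.22 and NTN4 by -0.84. None of the 5 passed the interaction test, whose estimates were -0.27 ± 0.58 for CD86, -0.98 ± 0.74 for FCGR1A, 0.86 ± 0.89 for SLC15A1, -0.49 ± 0.60 for ITGA4 and -0.14 ± 0.28 for NTN4 (ketamine minus vehicle).

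**Figure D5:**
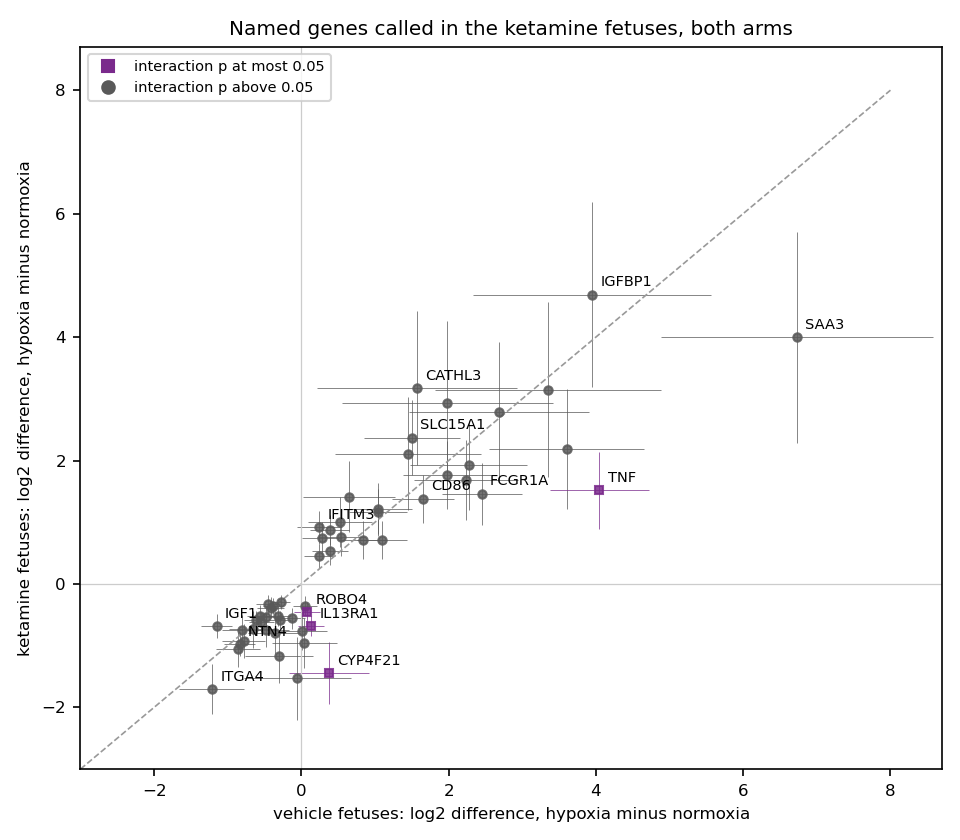
Difference between hypoxia and normoxia for the 55 named genes called in ketamine fetuses, in vehicle fetuses (x axis) and ketamine fetuses (y axis), both in log2 with bars of 1 standard error; purple squares have an interaction p of at most 0.05 and the dashed line marks equal differences. TNF lies far to the right of the line (4.05 and 1.52), and CYP4F21, IL13RA1 and ROBO4 are below 0 with ketamine and above 0 with vehicle.

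Of the 55, 4 passed the interaction test, against 3.64% of all named genes. The 55 were called on the ketamine response, which enters that test, so the count is not independent of their choice. TNF differed by 4.05 in vehicle and 1.52 in ketamine fetuses, a gap of -2.53 ± 0.91. IL13RA1 differed by 0.13 and -0.68, CYP4F21 by 0.37 and -1.44, and ROBO4 by 0.08 and -0.45, in each case vehicle first. Among the inflammatory genes not called with ketamine, IL1B (3.56 with vehicle, 0.89 with ketamine), NFKBIA (2.55 and 0.81), the inhibitor that NF-kB itself induces, and TLR4 (1.15 and -0.31) also passed it. For CXCL8 the responses were 4.56 and 1.29, for SELP 4.85 and 2.13 and for JUNB 2.79 and 0.80, and the interaction did not pass for these 3. The 8 named genes with the smallest interaction p included, besides IL13RA1, COPS7B, a subunit of the COP9 signalosome (-0.88 with vehicle, 0.31 with ketamine), BCAT2, a transaminase of branched amino acids (-0.53 and 0.16), CHRD, a BMP antagonist (-0.56 and 0.36), SNAI2, a repressor of epithelial genes (-1.48 and -0.28), INHA, an inhibin chain (-0.28 and 0.25), SLC66A2 (0.62 and -0.33), and SLC9A3, the sodium-proton exchanger of the proximal tubule (0.78 and -0.22). For SLC9A3 the second probe differed by 0.58 with ketamine, against the first.

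Most probes with the smallest p have no gene name, and only 11.4% of the probes on the array carry one. The unnamed probes below were picked for their small p. A_70_P057701 read -1.11, -1.14, -1.16 and -1.33 in normoxia and -1.87, -1.94, -1.77 and -2.01 in hypoxia, and fell by 0.71 ± 0.11. A_70_P004386 read -1.57, -1.47, -1.37 and -1.61 in normoxia and -2.19, -2.34, -2.07 and -2.17 in hypoxia, and fell by 0.69 ± 0.11. In both, the spread within a group was under the gap between them, and adjusted p in limma was 0.15. Among those that rose, A_70_P012786 read 2.22, 1.72, 2.29 and 1.89 in normoxia and 3.68, 3.35, 3.96 and 2.95 in hypoxia (1.46 ± 0.25), and A_70_P001581 differed by 0.73 ± 0.14. All 4 passed in each fit that left out 1 array and without the arrays with placental lactogen, and A_70_P001581 did not with normexp (0.48).

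Several groups showed no call in limma at the unadjusted threshold: 0 of 9 immediate early genes (median 0.21), 0 of 24 ribosomal protein genes (0.02), 0 of 13 cell cycle genes (0.05), 0 of 6 heat shock proteins (-0.21) and 0 of 7 glutamate and GABA receptor genes (-0.06), of which 2 were well above background on all 8 arrays. With 10.5% of all named genes called, 0 in the smaller of these groups is near that share. The number of arrays limits what these counts can show.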

How the data were processed

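Kidney cortex RNA of 15 fetuses was labelled with Cy3 and hybridised to 1-colour Agilent ovine arrays. The deposited scanner files hold spot intensity on a linear scale, background-subtracted and detrended by Agilent Feature Extraction 10.1.1.1 per the file headers. The authors' deposited value table is in log2 units, its normalization is not given in the sources used here, and it was used as an alternative. Of its 15 columns 3 track the scanner file of the same sample most closely and 12 that of another sample of the same group, so array numbers here follow the scanner files and which fetus each belongs to within a group is uncertain. The submitters' processing notes name limma.

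Spot intensity was converted to log2, the array's 75th percentile was subtracted, and spots of 1 probe were averaged after dropping flagged outliers. Probes well above background on at least 3 of 15 arrays were tested (12925 of 15008). limma 3.58.1 in R 4.3.3 took all 15 arrays, a mean for each group and a common spread for each probe (11 residual and 2.40 prior degrees of freedom), and the tests were two-sided. Tables and plots used Python 3.11.15. The median SD of a probe was 0.206 in normoxic and 0.238 in hypoxic ketamine fetuses, and the number of arrays limits the precision.

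Gene names came from the array, a sheep RefSeq table (871 probes), a table of older symbols (192) and the array's descriptions (57), and 13295 probes have none. The 38 gene lists, 5 probe families and the members were chosen with earlier results of these data known. Named were the 5 marker genes, the 12 largest rises and 12 largest falls without overlap, up to 5 called genes per list, a panel of 20 genes, the 8 smallest interaction p-values, and 2 unnamed probes each way. The fitting code was tested on simulated data. The counts include a few genes whose results are not reported here.

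Alternatives were normexp background correction (offset 50), quantile normalization, the deposited table, other filters, slide and replicate blocks, fits within a slide, array weights, the 8 ketamine arrays alone, and leaving out arrays. The slides are those of the file headers. Same-numbered arrays were not taken as pairs: the correlation of their deviations was -0.085, 0.084, 0.083 and 0.086. For IL6, the at-least fold sets normoxic arrays to the higher of their own value and their lowest detected signal.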

Additional observations from a re-analysis of the deposited data

Results flagged for a closer look

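In 10 of 156 sets of 4 arrays examined, 1 array lay apart from the other 3 by Dixon's ratio at its 95% limit, and chance gives about 5% of such sets. In hypoxia, H2 stood high for RTP4 (5.47, others 2.14 to 2.47), for CYP4F21 (-5.07, others -5.58 to -5.52) and for the level of the interferon-stimulated list (3.68, others 0.05 to 0.34), and H3 stood low for LOC100101238 (-0.78, others -0.07 to 0.03). In normoxia, N1 stood high for CYBB (-1.65, others -2.23 to -2.17), IGF1 (-2.94, others -3.42 to -3.39) and FST (1.57, others 0.32 to 0.44), N2 for NTN4 (2.34, others 1.97 to 2.01) and SMAD4 (-1.14, others -1.43 to -1.39), and N4 for SELP (-4.69, others -5.54 to -5.50).

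The response to hypoxia differed between ketamine and vehicle fetuses at an unadjusted limma p of at most 0.05 for 14 of the genes named, and for 0 after adjustment over all probes in limma. Of the genes named, 8 were picked for the smallest interaction p, so the 14 do not measure how common such differences were. Among all 907 named genes 33 passed (3.64%). The differences, ketamine minus vehicle, were below 0 for IL1B (-2.66), TNF (-2.53), CYP4F21 (-1.81), NFKBIA (-1.74), TLR4 (-1.46), SLC9A3 (-1.0), SLC66A2 (-0.95), IL13RA1 (-0.81) and ROBO4 (-0.53). They were above 0 for COPS7B (1.19), SNAI2 (1.19), CHRD (0.93), BCAT2 (0.69) and INHA (0.53). TNF, IL1B and NFKBIA were higher after hypoxia in both arms, by more with vehicle, while TLR4 was higher with vehicle only.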

How the results depend on the processing

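Counts of called probes were 832 to 1341 (higher 344 to 587, lower 463 to 754, adjusted 0 to 2) over fits leaving out 1 array, and 239 to 986 for the interaction. Calls, higher and lower, moved to 606, 285 and 321 within slide 1 and to 1819, 728 and 1091 with array weights; lower calls moved to 284 with normexp, 276 within slide 2 and 371 without the arrays with placental lactogen. Adjusted calls were 4 from the 8 ketamine arrays alone, 2 within slide 2 and 54 with array weights. Interaction calls were 198 with normexp, 229 within slide 1, 930 with weights and 713 without the arrays with placental lactogen. Rises made up 42.7% of the calls, but 63.2% with normexp (median over all probes 0.09 against -0.02), 66.3% within slide 2 and 54.8% without the arrays with placental lactogen. Replicate numbers gave no pairing; with them as a replicate block 1155 probes were called, and MHC class I rises went from 6 to 11. Leaving out 1 array gave 3 to 4 monocyte and macrophage, 1 to 7 interferon, 0 to 11 MHC class I and 3 to 4 matrix calls. Monocyte and macrophage calls were 0 within slide 2 and without the arrays with placental lactogen, and matrix calls 1 within slide 2. Interferon calls were 7 from the 8 ketamine arrays, 5 with slide as a block or weights, and 0 without the arrays with placental lactogen. MHC class I calls were 10 from the 8 ketamine arrays and with slide as a block, 12 and 1 within the slides, and 2 without the arrays with placental lactogen. With normexp CLOCK (0.075), SCD (0.092) and PRP2 (0.16) turned sign; the cause was not tested. All 59 called genes and probes kept their direction within both slides, where 35 and 14 passed with 2 arrays in each ketamine group. The 59 were called on these same arrays, so the shared direction is not independent of their choice. Of the 59, 28 passed in every fit leaving out 1 array. In the deposited values 22 rises and 27 falls passed. H4, with the highest background limit, holds dim probes least well.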
